A study of Drosophila melanogaster with 2 samples.

Results

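The mitochondrial ribosomal protein genes were taken by symbol, as the protein-coding genes of Drosophila melanogaster whose name is mRpL or mRpS followed by a digit. This gave 73 genes of the 13968 protein-coding genes in the annotation, 47 named for the large subunit and 26 for the small subunit. Binding of Zelda, the product of zld (also called vfl), was mapped by chromatin immunoprecipitation and sequencing in embryos of 1 transgenic line, in which GFP is joined to the C-terminal end of Zelda. Whole embryos of both sexes, aged 0 to 24 hours, were used in 1 group with 2 biological replicates, which the labels number 2 and 3, and there was no contrast between groups. The sample description names an antibody against GFP, while the antibody field reads vfl. All stages and cell types of that window are mixed, so binding in few cells and weak binding in many cells cannot be told apart.

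The mitochondrial ribosome makes the few respiratory chain proteins encoded by mitochondrial DNA. Its own proteins are encoded in the nucleus, made in the cytoplasm and imported, so that each member listed here has an ordinary nuclear promoter. Zelda, a pioneer factor with zinc fingers, makes chromatin accessible and switches on zygotic transcription in the early embryo, and its textbook site is CAGGTAG. Many fly housekeeping genes lie head to head, with the starts of a pair close together on opposite strands, and 1 peak between such starts cannot be given to either gene by position alone.

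The lists give peaks with a summit position and the authors' signal value, and no read counts, so the depth behind each peak is unknown. A relaxed list held 30000 peaks for each replicate and for the pooled data. These lists are labelled as peaks and background, so a relaxed summit alone need not be binding. The authors' reproducibility threshold kept 2876 peaks, all of them the strongest of the pooled list, with a signal of 61.8 or more. Bound here means that the summit of a thresholded peak was at most 1 kb from any annotated start of the gene. The replicate signals are on scales of their own, so ranks within each list are given beside them. The strongest summit within 1 kb was taken in each list separately, so a gene's values need not come from 1 summit. Positions are on dm6.

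The stretches printed first are sequence at or near the summits of 3 of the strongest members and of mRpL10, the bound member with no opposite-strand start within 1 kb, to show the bases around the binding signal. They are given on the gene's strand, 5′ to 3′, limited to bases outside annotated exons, with any of the 5 promoter words searched in capitals; the words are spelled out where their shares are given. The strongest member, mRpL41, is not among them.
mRpS23, chr2L:13835384-13835534, minus strand: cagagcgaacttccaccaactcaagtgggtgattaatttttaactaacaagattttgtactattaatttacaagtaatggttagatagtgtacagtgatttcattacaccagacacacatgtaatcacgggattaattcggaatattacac
mRpL23, chr3L:2373545-2373596, minus strand: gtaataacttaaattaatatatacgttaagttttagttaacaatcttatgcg
mRpS10, chr3R:15229441-15229591, plus strand: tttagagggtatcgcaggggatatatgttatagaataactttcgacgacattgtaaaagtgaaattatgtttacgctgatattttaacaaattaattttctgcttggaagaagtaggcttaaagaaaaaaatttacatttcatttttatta
mRpL10, chr2L:203662-203778, plus strand: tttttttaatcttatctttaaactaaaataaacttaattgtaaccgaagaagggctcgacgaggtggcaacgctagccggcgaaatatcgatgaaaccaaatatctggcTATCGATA
The first 3 belong to bound genes with an opposite-strand start within 1 kb, and the bases printed hold none of the words. Outside these bases, mRpL23 has AGTGTTG in its promoter and 94 bp from its summit, and mRpS23 has TATCGATA in its promoter. The mRpL10 stretch ends with TATCGATA at the base before its own start. The GC content of these stretches was 33.8% at mRpS23, 21.2% at mRpL23, 27.2% at mRpS10 and 36.8% at mRpL10. The mRpL23 stretch lies within the gene, outside its annotated exons, and does not hold the summit.

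Of the 73 genes, 28 were bound (38.4%, 95% Wilson interval 28.1 to 49.8%), against 19.7% of all protein-coding genes. The members differ from other genes in how often a neighbouring gene starts close by. An opposite-strand start of another protein-coding gene lay within 1 kb of 58 of the 73 genes (79.5%), against 36.8% of all genes, and all 58 pairs were head to head. Among these 58 genes 27 were bound (46.6%, interval 34.3 to 59.2%), against 35.4% of all genes with such a start, a value inside the interval. Among the 15 genes without one, only mRpL10 was bound (6.67%, interval 1.19 to 29.8%), against 10.6% of all genes of that kind. When all genes were weighted to the members' mixture of both classes, 30.3% would be bound, or 22.1 of 73 genes, and this too lies inside the interval around 38.4%. With the number of annotated starts added to the classes, which is 1 for 67 of the 73 genes, the weighted share was 27.5%, below the interval's lower bound. Intervals cover counting error only, and genes that share a summit are not independent.

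**Figure D1:**
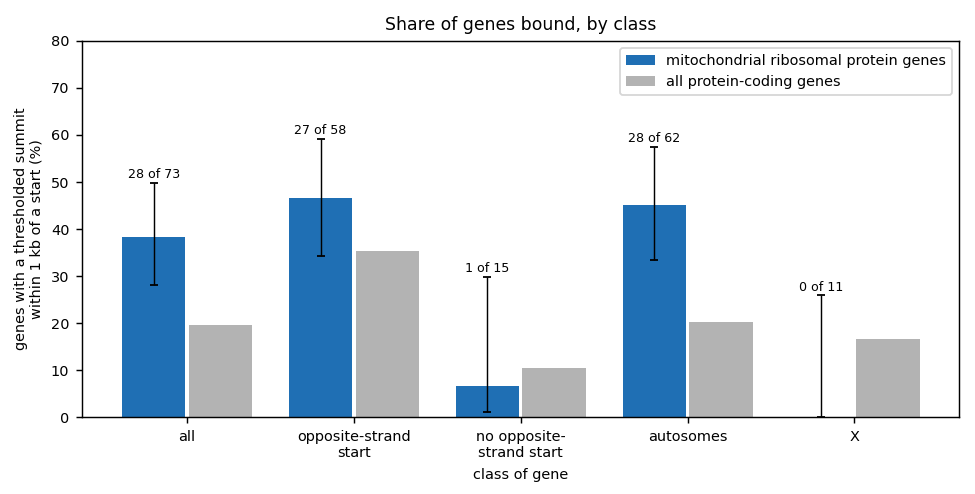
Share of genes bound (percent, vertical axis) by class of gene, for mitochondrial ribosomal protein genes (blue, with 95% Wilson intervals and counts) and all protein-coding genes (grey). The blue bar stands above the grey at genes with an opposite-strand start (46.6% against 35.4%) and below it at genes without (6.67% against 10.6%), and no member on X was bound.

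The count rests on letting a summit count for every gene within 1 kb. When each summit was given only to the gene with the nearest start, 11 members stayed bound (15.1%, against 13.9% of all genes), and 10 of the 58 with an opposite-strand start (17.2%, below the 20.1% of all genes of that class). By the distance between the starts, 6 of 18 genes were bound at 0 to 100 bp, 10 of 15 at 101 to 300 bp, 9 of 20 at 301 to 500 bp and 2 of 5 at 501 to 1000 bp. All genes in the same bins were bound in 34.1%, 40.7%, 38.6% and 25.7%. The bin with the highest share was the same for the members and for all genes. The lowest was not, at 0 to 100 bp for the members and 501 to 1000 bp for all genes. The members' intervals were wide: 16.3 to 56.3%, 41.7 to 84.8%, 25.8 to 65.8% and 11.8 to 76.9% in the order of the bins.

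The replicates gave similar counts when the strongest 2876 peaks of each were used. Replicate 2 had such a peak at 27 of the 73 genes (37%, against 19.3% of all genes) and replicate 3 at 24 (32.9%, against 19.4%), a mean of 34.9% ± 2.91 (SD, n = 2). The genes were only partly the same, with 18 in both replicates and 33 in either. With an opposite-strand start replicate 2 had 26 and replicate 3 had 23 of 58 genes, a mean of 42.2% ± 3.66 (SD, n = 2), against 34.3% and 34.1% of all such genes. Without one, each replicate had 1 gene of 15, against 10.6% and 10.9%. Of the 28 bound members, 24 were among the strongest peaks of replicate 2, 22 of replicate 3 and 18 of both, and 0 were in neither.

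**Figure D2:**
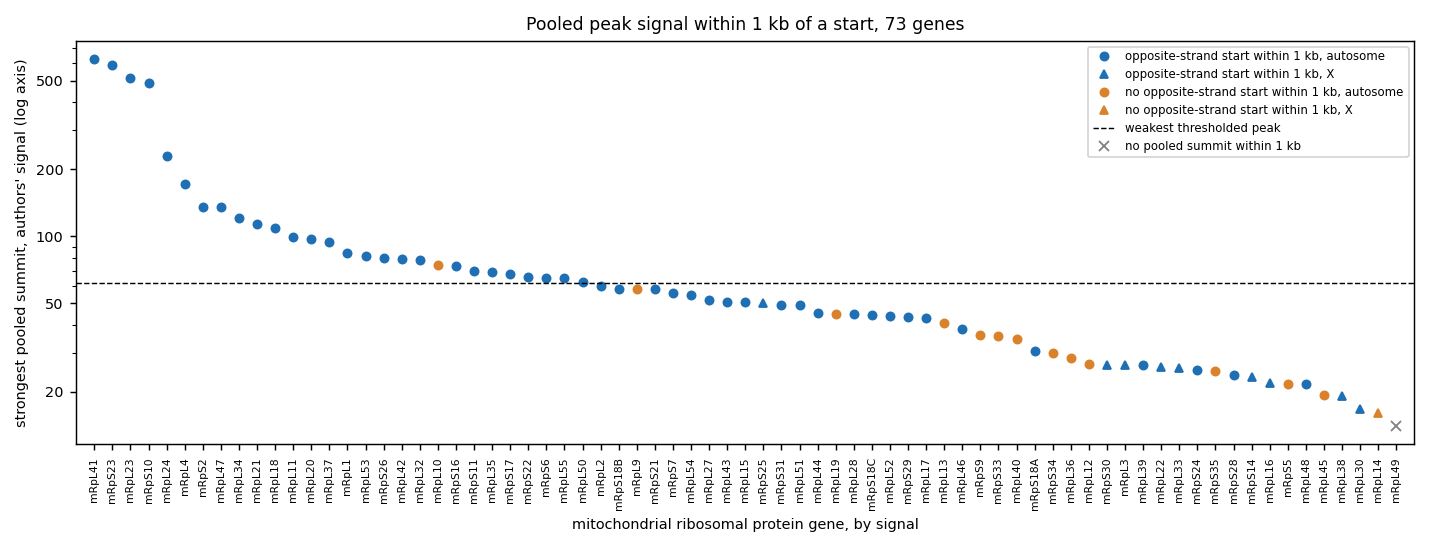
Signal of the strongest pooled summit within 1 kb of a start (authors' signal, log axis) for each of the 73 genes, in order of signal. Colour separates genes with and without an opposite-strand start, triangles are genes on X, the cross is the gene with no pooled summit and the dashed line is the weakest thresholded peak; the 4 strongest genes stand between 490 and 627, and the weakest pooled summit is at 16.1.

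The large subunit genes had 19 of 47 bound (40.4%, interval 27.6 to 54.7%), against 19.7% of all genes. With an opposite-strand start it was 18 of 37 (48.6%), against 35.4% of all such genes. Strongest was mRpL41 (FBgn0034001), which encodes a large subunit protein found in mitochondrial but not bacterial ribosomes. Its peak had a pooled signal of 627 (rank 13 of 30000), with 353 (rank 17) in replicate 2 and 272 (rank 8) in replicate 3. The summit at 2R position 15217758 lay 141 bp upstream of mRpL41, and the opposite-strand start of CG8079 was 762 bp from that of mRpL41, so mRpL41 was the nearest gene. mRpL23 (FBgn0035335), whose bacterial counterpart lies at the exit of the peptide tunnel, had a pooled signal of 514 (rank 22). Its signal was 332 (rank 22) in replicate 2 and 184 (rank 27) in replicate 3, and the summit lay 58 bp downstream of the nearest of its starts, and CG9004 starts on the other strand 24 bp from the closest start of mRpL23. These 2 genes stood far above the rest of the large subunit in both replicates.

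Next in the large subunit came mRpL24, with a pooled signal of 229 (rank 185), 122 (rank 256) in replicate 2 and 107 (rank 140) in replicate 3. Its summit lay 124 bp upstream, nearer to betaggt-I, which encodes a subunit of a protein prenyltransferase and starts 218 bp from mRpL24. mRpL4, whose bacterial counterpart lines the peptide tunnel, had 172 (rank 356), with 90 (rank 473) and 86.5 (rank 236) in replicates 2 and 3. Its summit was 118 bp upstream, and the starts of mRpL4 and CG4440 are 793 bp apart, so that the peak, like that of mRpL41, lay on the member's side of a wide gap. mRpL47, the counterpart of bacterial L29, had 136 (rank 596), with 77 (rank 687) and 57.9 (rank 613), and its summit lay between starts only 99 bp apart.

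mRpL34 and mRpL21 were less alike between replicates. mRpL34 had a pooled signal of 121 (rank 771), with 83.7 (rank 555) in replicate 2 and 37.9 (rank 1618) in replicate 3. Its partner at 384 bp is Dg, which encodes the cell surface receptor Dystroglycan. mRpL21 had 114 (rank 888), with 70.3 (rank 834) and 37.8 (rank 1633), and its summit lay 266 bp upstream and only 13 bp from the start of rept, which encodes a chromatin remodelling ATPase. Both ranked higher in replicate 2.

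The other bound large subunit genes with a pooled signal between 62.3 and 109 were mRpL18, mRpL11, mRpL20, mRpL37, mRpL1, mRpL53, mRpL42, mRpL32, mRpL10, mRpL35, mRpL55 and mRpL50. mRpL18 (109, rank 950) starts 20 bp from Taz, the gene of the cardiolipin enzyme Tafazzin, and its summit lay 148 bp upstream, inside Taz. mRpL11 (99, rank 1139), a protein of the ribosomal stalk base, pairs with HtrA2, a mitochondrial protease gene. mRpL35 (68.9, rank 2338) pairs with Mitofilin, which shapes the inner mitochondrial membrane, and mRpL32 (78.4, rank 1832) with qless, which acts in coenzyme Q synthesis. mRpL53 pairs with the small RNA effector gene AGO1 and mRpL42 with PIG-N of the GPI anchor pathway. Which of the paired genes a peak serves was not tested.

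mRpL55 and mRpL50 were bound near the threshold and ranked far better in replicate 3. mRpL55 had a pooled signal of 64.7 (rank 2647), with 27.6 (rank 4466) in replicate 2 and 39.3 (rank 1489) in replicate 3. Its summit lay 642 bp downstream of its own start and 7 bp from the start of cdi, a protein kinase gene on the same strand, although ATPsynD, of the ATP synthase, starts 95 bp from mRpL55 on the other strand. mRpL50 had 62.3 (rank 2828), with 26 (rank 4952) and 34.4 (rank 2007). mRpL10, the stalk protein gene without an opposite-strand start, had 74.1 (rank 2048), with 31.9 (rank 3492) in replicate 2 and 39.1 (rank 1512) in replicate 3, and its summit lay 42 bp upstream.

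The small subunit genes had 9 of 26 bound (34.6%, interval 19.4 to 53.8%), against 19.7% of all genes. With an opposite-strand start it was 9 of 21 (42.9%), against 35.4% of all such genes. Replicate 2 alone gave 9 and replicate 3 alone gave 5 (34.6% against 19.3% of all genes, and 19.2% against 19.4%). All of these had an opposite-strand start, a class of 21 small subunit genes. Their share in it was 42.9% in replicate 2 and 23.8% in replicate 3, against 34.3% and 34.1% of all such genes. This share thus depended on the replicate, while the large subunit gave 18 and 19 of 47 (38.3% and 40.4%). With an opposite-strand start the large subunit had 45.9% and 48.6%. mRpS23 (FBgn0260407), of a protein without a bacterial counterpart, led with a pooled signal of 592 (rank 17), 333 (rank 21) in replicate 2 and 260 (rank 9) in replicate 3. Its summit lay 387 bp upstream, and 105 bp from the start of CenG1A, which encodes an Arf GTPase activating protein; CenG1A was the nearest gene. mRpS10 (FBgn0038307), in the head of the subunit, had 490 (rank 23), with 320 (rank 25) and 169 (rank 34). Its summit lay between its start, 149 bp away, and that of the arginine methyltransferase gene Art3, 108 bp away. These 2 genes ranked within the first 34 peaks of both replicates, as did mRpL41 and mRpL23.

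mRpS2 had a pooled signal of 136 (rank 593), with 80.3 (rank 621) in replicate 2 and 56.6 (rank 640) in replicate 3, and its summit lay 51 bp from Mon1, an endosomal trafficking gene. The remaining bound small subunit genes were mRpS26, mRpS16, mRpS11, mRpS17, mRpS22 and mRpS6, with pooled signals between 65.2 and 79.7. mRpS11 had the widest gap between replicates, with 48.8 (rank 1680) in replicate 2 and 20.9 (rank 5571) in replicate 3. mRpS16 had 51.2 (rank 1537) and 23.6 (rank 4361), and mRpS22 had 40.7 (rank 2301) and 23.6 (rank 4360). All 3 ranked better in replicate 2, where mRpL55 and mRpL50 ranked worse, and these 5 had the largest differences in rank among bound members. The partners here include Nop60B, of RNA pseudouridylation, next to mRpS17, the nucleostemin gene Ns1 next to mRpS11 and the zinc finger gene cg next to mRpS16.

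**Figure D3:**
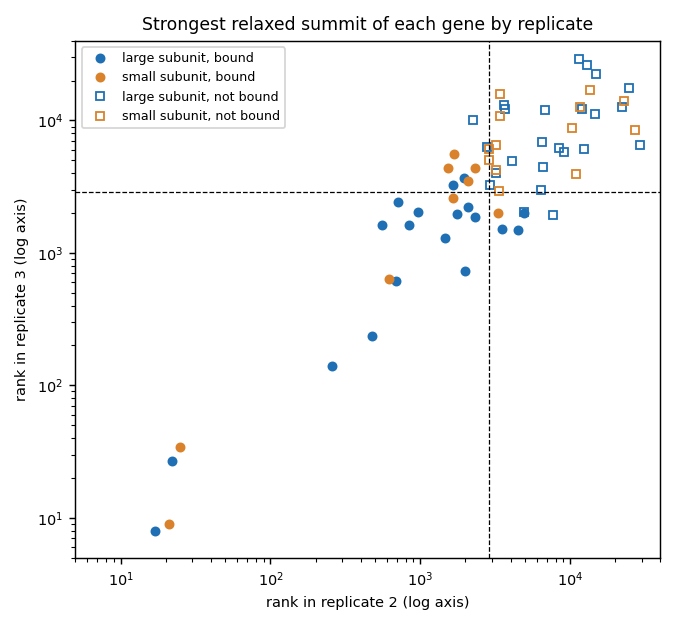
Rank of the strongest relaxed summit within 1 kb in replicate 2 (horizontal, log axis) and replicate 3 (vertical, log axis) for the 65 genes with one in each; filled points are bound, dashed lines mark rank 2876. Of the 28 bound genes 18 lie inside both lines, and the 4 strongest stand apart at ranks 8 to 34.

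Across the bound members the signals of the replicates had a Spearman correlation of 0.591 over 28 genes, and of 0.757 over the 65 genes with a relaxed summit in each replicate. These are descriptions over genes, which share libraries and depth. Summits were not matched by position between replicates, and 29 of the 73 members had only 1 pooled summit within 1 kb. The median pooled signal of the 28 was 89.3 (62.3 to 627), against 96.1 over all bound genes, so bound members were not stronger than other bound genes by the median.

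Summits lay mostly upstream of the members and often nearer to the partner. Upstream summits were found at 24 of 28 bound members (85.7%), the same share as over all bound genes (85.7%). Of the 27 bound head to head pairs, 21 had the summit between the starts (77.8%, against 68.6% of all bound head to head genes). The member's own start was the nearest at 11 of 28 (39.3%, against 67.7% of all bound genes), the opposite-strand gene's at 16 and a same-strand gene's at 1. Within the bound genes with an opposite-strand start, the own start was nearest at 10 of 27 (37%), against 52.9% of 1818 genes. Each bound member had 1 thresholded summit, 27 of the 28 summits lay within 1 kb of another gene, and no summit served 2 members.

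**Figure D4:**
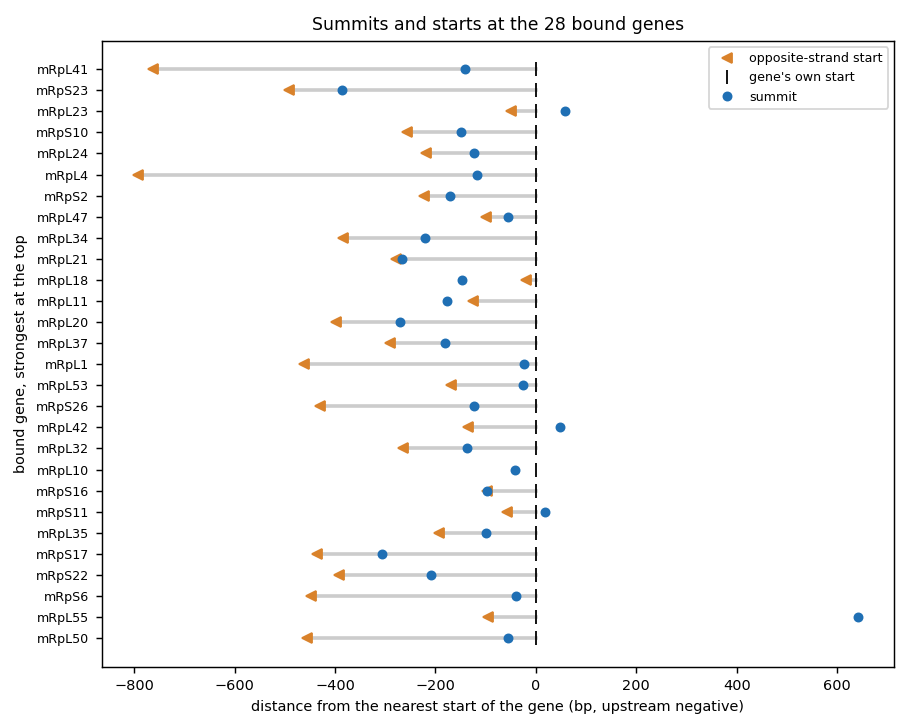
Position of the thresholded summit (blue) relative to the nearest start of each of the 28 bound genes (0 on the horizontal axis, bp, upstream negative), with the start of the opposite-strand gene (orange) and the space between the starts (grey). Most summits fall in the grey span; mRpL55 lies 642 bp downstream and mRpL10 has no opposite-strand start.

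None of the 11 members on X was bound (0%, interval 0 to 25.9%), against 16.6% of all X genes, and 9 of the 11 have an opposite-strand start, a class bound in 27.3% on X. On the autosomes 28 of 62 members were bound (45.2%, against 20.3%). This division was chosen after the values were seen. The X members were also weak in the relaxed list: mRpS25 led with a pooled signal of 50.3 (rank 4017), and the other 9 with a pooled summit, mRpL3, mRpL14, mRpL16, mRpL22, mRpL30, mRpL33, mRpL38, mRpS14 and mRpS30, had signals between 16.1 and 26.4. mRpL49 had none in the pooled list and only a summit at rank 21840 in replicate 3. Genes of other ribosomal proteins on X were bound: tko, which encodes the mitochondrial counterpart of bacterial S12 and lies outside the symbol rule, had a pooled signal of 75.5 (rank 1972), with 44.3 (rank 1989) and 29.7 (rank 2753). Of the cytoplasmic ribosomal protein genes on X, 10 of 15 were bound (66.7%, interval 41.7 to 84.8%), against 16.6% of all X genes. Of the respiratory chain and ATP synthase genes on X it was 4 of 13 (30.8%, interval 12.7 to 57.6%). Among autosomal arms the counts were 5 of 12 on 2L, 7 of 12 on 2R, 6 of 17 on 3L and 10 of 21 on 3R, against 19.5%, 20%, 20.3% and 21.5% of all genes.

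Below the threshold the members were nearly all present in the relaxed list, which also holds background. Presence there is not a call of binding. A pooled relaxed summit lay within 1 kb of 72 of 73 genes (98.6%, against 62.9% of all genes), of all 58 with an opposite-strand start (against 85%) and of 14 of 15 without one (93.3%, against 49.9%). Replicate 2 had 68 (against 63.3%) and replicate 3 had 70 (against 62.5%). By rank, 14 members had their strongest summit at ranks 1 to 1438 (against 11.2% of all genes), 14 at 1439 to 2876 (against 8.48%) and 20 at 2877 to 5752 (against 12.2%), which is 19.2%, 19.2% and 27.4% of the members. A further 6 lay at ranks 5753 to 10000 (against 10.5%) and 18 beyond (against 20.5%). All genes are a mixed background here, since more members than other genes have an opposite-strand start. Among the 58 members with one, 24.1% lay at ranks 1 to 1438, against 21.2% of all such genes. At ranks 1439 to 2876 it was 22.4% against 14.2%, and at 2877 to 5752 it was 29.3% against 18.6%.

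The 6 strongest unbound members lay just outside the threshold of 61.8. mRpL2, whose bacterial counterpart sits near the catalytic centre, had a pooled signal of 59.6 (rank 3081), mRpS18B 58.3 (rank 3183), mRpS21 57.8 (rank 3222), mRpL9 57.8 (rank 3226), mRpS7 55.8 (rank 3410) and mRpL54 54.7 (rank 3522). Just inside were mRpL50 at 62.3 and mRpL55 at 64.7, so the boundary cuts a continuous series. mRpL9, without an opposite-strand start, was at 41.5 (rank 2230) in replicate 2 and 15.4 (rank 10076) in replicate 3, while mRpL54 was at 20.5 (rank 7731) and 34.8 (rank 1947). Each of these would be called in 1 replicate by its strongest peaks and not in the other.

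The 5 words, known or noted at fly promoters, were searched on both strands in 250 bases before to 50 after each gene's most upstream start. CAGGTAG, the Zelda word, was in 0 of 73 promoters (interval 0 to 5%), against 1.64% of all promoters, and within 100 bp of 0 of 28 bound summits (upper bound 12.1%), against 2.02% of all thresholded summits. TATCGATA, the site of the replication-related factor DREF, was in 15 of 73 (20.5%, interval 12.9 to 31.2%). All promoters had it in 9.36%, and those with an opposite-strand start in 15.6%. It was in 5 of 28 bound (17.9%) and 10 of 45 unbound members (22.2%). Over all genes with an opposite-strand start the order was reversed, with 18.8% of bound and 13.9% of unbound promoters. It lay within 100 bp of 2 of 28 bound summits (7.14%), against 10.1% of thresholded summits near a start. GGTCACAC, from the site of the promoter factor M1BP, was in 8 of 73 (11%), against 7.69% of all and 13% of those with an opposite-strand start. GCGCATGC, of the NRF-1 type, was in mRpL21 alone, against 1.05% of all promoters. Of these words TATCGATA was the most frequent in the members, but not more so in the bound ones.

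AGTGTTG, given no factor here, was in 10 of 73 promoters (13.7%, interval 7.61 to 23.4%), against 7.3% of all and 10.6% of those with an opposite-strand start. It was in 6 of 28 bound members (21.4%) and 4 of 45 unbound ones (8.89%), and the same order held over all genes with an opposite-strand start, with 17.1% of bound and 7.13% of unbound promoters. At summits it lay within 100 bp in 5 of 28 bound members (17.9%), against 13.4% of thresholded summits near a start. The stretches of 3 members with the word, read as CAACACT on the gene's strand and shown in capitals, have the same 2 bases after it. A further member, mRpL19, is shown for TATCGATA.
mRpS11 (bound), chr3R:17072676-17072731, plus strand: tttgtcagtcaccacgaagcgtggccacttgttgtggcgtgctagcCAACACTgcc
mRpL9 (not bound), chr3R:15330633-15330737, plus strand: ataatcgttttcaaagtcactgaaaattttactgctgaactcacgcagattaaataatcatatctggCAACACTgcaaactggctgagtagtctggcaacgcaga
mRpL51 (not bound), chr2L:8517381-8517410, minus strand: aatcactacattttcCAACACTgccggctt
mRpL19 (not bound), chr3R:8673967-8674108, plus strand: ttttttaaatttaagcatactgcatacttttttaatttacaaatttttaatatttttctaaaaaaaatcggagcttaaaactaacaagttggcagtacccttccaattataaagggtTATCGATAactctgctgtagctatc
The centre of the printed word was 25 bp from the summit at mRpS11, where another copy, not printed, lay at 15 bp. It was 5 bp from the summit at mRpL9 and 36 bp at mRpL51. The longer word CAACACTGC, which contains it and was searched after these stretches were seen, was in 5 of 73 promoters (6.85%: mRpL51, mRpL52, mRpL9, mRpS11 and mRpS22), against 1.05% of all promoters and 1.61% of those with an opposite-strand start. Only mRpS11 and mRpS22 of these 5 were bound. The longer word was taken from the stretches of mRpS11, mRpL9 and mRpL51, and these 3 are counted among the 5. Its share in the members is therefore raised by the choice of the word and is not an independent count. A match is a description of the letters and not a site.

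The bases within 100 bp of the bound members' summits were AT-rich, with a mean GC content of 35.6% ± 8.09 (SD, n = 28), against 38.2% at thresholded summits within 500 bp of any start. The pooled summits of unbound members had a mean of 41.9% ± 10.3 (SD, n = 44). The ranges overlap, from 25.4 to 53.7% and from 24.4 to 61.2%. Bound and unbound summits were not matched for position relative to the start. Several unbound summits lay far downstream of the own start, such as mRpL16 (804 bp) and mRpS5 (886 bp), as did the bound mRpL55 (642 bp).

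Other genes of mitochondrial gene expression were bound in 6 of 22 (27.3%, interval 13.2 to 48.2%), against 19.7% of all genes. With an opposite-strand start it was 4 of 12 (33.3%, against 35.4% of all such genes). Without one it was 2 of 10 (20%, against 10.6%). PNPase, the mitochondrial polynucleotide phosphorylase gene, had a pooled signal of 724 (rank 6), with 410 (rank 12) in replicate 2 and 316 (rank 5) in replicate 3, above every mitochondrial ribosomal protein gene. The single-strand DNA binding protein gene mtSSB had 106, the mitochondrial RNA polymerase gene PolrMT 77.4, and PolG2, of the mitochondrial DNA polymerase, 77.1. tko and mTerf5, a transcription termination factor gene, made up the 6. Replicate 2 alone gave 4 (18.2%, against 19.3% of all genes) and replicate 3 alone 6 (27.3%, against 19.4%).

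The cytoplasmic ribosomal protein genes were bound more often than the mitochondrial ones in each class, without a test of the difference. They had 54 of 93 bound (58.1%, interval 47.9 to 67.6%), 38 of 56 with an opposite-strand start (67.9%) and 16 of 37 without (43.2%), led by RpL34b, RpS27, RpL7 and RpL32 with pooled signals of 373, 345, 321 and 240. Nuclear genes of the respiratory chain and ATP synthase, whose products work beside those of the mitochondrial ribosome, had 19 of 91 bound (20.9%, interval 13.8 to 30.3%), 13 of 46 with an opposite-strand start (28.3%) and 6 of 45 without (13.3%). Their highest were ND-ASHI, ND-24, COX6B and COX5A with 218, 165, 159 and 144. This list also holds paralogues whose symbol adds an L to that of a subunit. Several of them, such as COX4L, ND-20L and SdhAL, had no relaxed summit within 1 kb, while COX7AL2 was bound. The shares are thus those of the whole symbol list, and the subunits without such paralogues were not counted apart. The mitochondrial ribosomal protein genes, at 46.6% and 6.67%, had the widest gap between the classes of these 3 lists. All protein-coding genes were at 35.4% and 10.6%. The gap of the members rests on 1 bound gene of 15, and narrowed to 47.2% and 15% with opposite starts sought within 500 bp. The intervals for genes without an opposite-strand start, 1.19 to 29.8% here and 28.7 to 59.1% in the cytoplasmic list, overlap slightly.

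**Figure D5:**
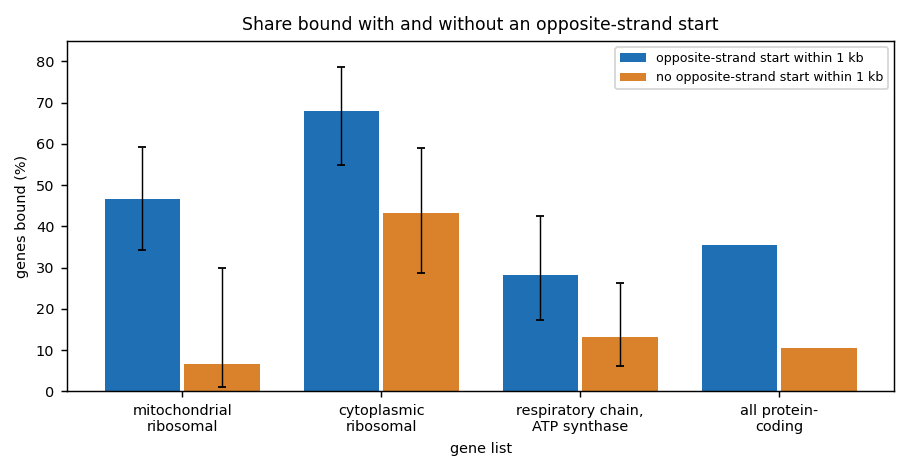
Share of genes bound (percent) with an opposite-strand start within 1 kb (blue) and without one (orange) in 3 gene lists, with 95% Wilson intervals, and in all protein-coding genes. The mitochondrial ribosomal protein genes show 46.6% and 6.67%, the cytoplasmic ones 67.9% and 43.2%.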

How the data were processed

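The authors deposited peak lists in narrowPeak format on dm3 and dm6, and only dm6 was used. Peak signal (column 7) is the authors' deposited signal value, used to rank peaks within a list. Per the text deposited with the files, relaxed lists were made per replicate and on both together, and the thresholded list for reproducibility. The relaxed lists are labelled as peaks and background. For the aligner, the peak caller and the content of the control: not given in the sources used here. Depth is unknown.

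Genes and starts came from Ensembl release 115 (BDGP6.54, 13968 protein-coding genes, 19630 starts), sequence from NCBI Release 6. The 73 genes had the same coordinates in both annotations. An opposite-strand start is a start of another protein-coding gene on the other strand within 1 kb. The strongest summit within 1 kb in each list gave a gene's values, without matching summits between lists. Replicates were compared by their strongest 2876 peaks. Words were searched on both strands. Intervals are 95% Wilson.

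With 1 group no test was made, and shares stand beside those of all genes. Subunits were taken from symbols; the mammalian counterparts of mRpS30 and mRpS18A lie in the large subunit. The comparison lists were made by symbol and can hold paralogues, and 3 of the 25 names of the mitochondrial gene expression list (mTFB1, mTFB2, Twinkle) were not matched. Members, lists and words were chosen with earlier results of these data known. Genes named in full are all bound members, the 6 strongest unbound ones and any without a pooled summit; replicate values are given for the 10 strongest and the 5 with the largest rank difference. The X split, the sequences of mRpS11, mRpL9, mRpL51 and mRpL19, and CAACACTGC were chosen after seeing values. Assignment was checked on simulated summits, where all 100 planted genes were found. Python 3.11.15, numpy 2.4.6, pandas 2.3.3 and scipy 1.17.1 were used.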

Additional observations from a re-analysis of the deposited data

How the results depend on the processing

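Of the counts of bound members under other settings, 45 stayed within 1.5 times the value reported and 13 did not. With the strongest 1438 thresholded peaks 14 of 73 members were bound (19.2%, against 11.2% of all genes), which follows from the fewer peaks. With an opposite-strand start it was 14 (24.1%, against 21.2% of such genes) and without one 0 (0%, against 5.42%). The large subunit had 11 (23.4%) and the small subunit 3 (11.5%), against 11.2% of all genes. The small subunit was thus level with all genes at this cut. With each summit given to the nearest start only, 11 members were bound (15.1%, against 13.9% of all genes). Of these, 10 had an opposite-strand start, 8 were large (17%, against 13.9%) and 3 small subunit genes. Under this assignment the share of members fell from 38.4% to 15.1%, and that of all genes from 19.7% to 13.9%. Why the members fell further was not tested. At 2 kb, 2 members without an opposite-strand start (13.3%, against 14.5% of such genes) and 1 on X (9.09%, against 20.4%) were bound. With opposite starts sought within 500 bp, 3 of 20 without one were bound. From a single replicate's strongest peaks, all members gave 24 to 27, those with an opposite-strand start 23 to 26, those without 1 to 1, the large subunit 18 to 19 and the small subunit 5 to 9; on X it was 0 to 0. In 4 of these cases the share changed sides of the share of all genes. With the nearest start only, members with an opposite-strand start were at 17.2% against 20.1% and the small subunit at 11.5% against 13.9%. From replicate 3 alone the small subunit was at 19.2% against 19.4%, and with opposite starts sought within 500 bp the members without one were at 15% against 12.5%. Counts of words at summits moved in 6 cases; CAGGTAG was at 1 summit within 200 bp. No paired analysis was possible because there was 1 group. With 2 replicates and no read counts, shares of 15 or 11 genes stay imprecise.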
